A study of Mus musculus with 71 samples.

Results

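Arc, Homer1, Bdnf, Npas4, Nptx2, Inhba, Plk2, Rgs2, Ptgs2 and Vgf are activity-induced neuronal genes. Apart from the transcription factor Npas4, their products act at the synapse or as secreted trophic signals. The genes were chosen by name, and each was matched through its Ensembl identifier, giving 10 of the 57010 genes of the count table. All 10 had at least 10 counts in total over the 71 mice and were among the 30141 genes tested. Strong synaptic input raises calcium in a neuron and activates kinases and transcription factors, among them Creb1 and Srf, that switch on immediate-early genes. Some of these genes encode transcription factors such as Npas4, and others encode effectors that change glutamate receptor traffic, the postsynaptic scaffold, intracellular signalling or the release of growth factors. In the hippocampus these genes serve as markers of recently active neurons, and Arc and Bdnf are needed for lasting memory.

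The mice were wild-type (WT) male C57BL/6J animals, and each library came from the hippocampus of a separate mouse. Ribosomes that carry phosphorylated S6, a mark of recently active cells, were precipitated (pS6-TRAP) and their mRNA was sequenced, so a level here is a level on those ribosomes, and no library of unprecipitated RNA is in the table. Mice ate Normal Chow ad libitum (NC ad lib), a High Fat High Sugar diet ad libitum (HFS ad lib), or the same High Fat High Sugar diet under Time Restricted Feeding (HFS TRF), in which food was given mainly in the dark phase during the last weeks. The titles of the HFS TRF samples also say ad libitum, and the group was taken from the diet label. On each diet mice stayed in the Home Cage (HC) and were sampled at zt3 or zt15, counted in hours after lights on, or had 10 minutes of object recognition memory (ORM) training and were sampled 1 h later at zt3 (ORM+1 h) or 12 h later at zt15 (ORM+12 h). Of the 12 groups, 11 hold 6 mice and HFS TRF HC zt15 holds 5, and the labels give no age. The groups at zt3 (36 mice) and those at zt15 (35 mice) come from separate experiments, so a time-of-day difference and a difference between experiments cannot be told apart.

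Total counts per library ran from 34698914 to 62758570 with a median of 53999489. The lowest single count of any of the 10 genes in any mouse was 124, for Npas4, so no value below is a zero. All levels are CPM (counts scaled to library size) after edgeR's TMM normalization, and a gene is called when its Benjamini-Hochberg adjusted p over all 30141 genes, by the quasi-likelihood test of edgeR, is under 0.05.

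The libraries carried the markers of the labelled tissue. All 8 neuronal markers were tested, their summed level ran from 7982 to 10437 CPM over the 71 mice, and the most abundant was Snap25 at a mean of 4082 CPM. Markers of the hippocampal fields were present as well, with means of 81.4 CPM for Prox1 of dentate granule cells, 229.6 CPM for Mpped1 of CA1 and 199 CPM for Bok of CA3. Endothelial markers were near 0, with summed levels of 0.672 to 10.2 CPM over 5 genes, Flt1 the most abundant at 1.15 CPM and Tek the least at 0.233 CPM. Markers of neighbouring tissue varied between mice. The 7 choroid plexus markers, led by Ttr at 3204 CPM, summed to 94.9 CPM in one mouse and 18780 CPM in another (HFS TRF HC zt15 replicate 3). The 4 striatal markers, led by Ppp1r1b at 204 CPM with Adora2a near 0 at 0.379 CPM, summed to between 102 and 515 CPM, and the 3 thalamic markers, led by Prkcd at 64.7 CPM, to between 34.3 and 294 CPM. The 5 microglial markers, led by Csf1r at 21.8 CPM, ran from 21.7 CPM to 264 CPM in HFS ad lib HC zt15 replicate 2. Oligodendrocyte markers (6 genes, led by Mbp at 409.8 CPM) summed to 593 to 1331 CPM, and the 2 markers of their precursors (led by Pdgfra at 10.9 CPM) to 10.9 to 24.1 CPM. In whole hippocampus, fewer active cells of a type and less RNA per cell cannot be told apart.

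By length-corrected level (mean CPM per kb of exon over the 71 mice), Vgf was the most abundant of the 10 genes at 118 and Arc was next at 88.5. Plk2 stood at 67.8, Homer1 at 25.2, Nptx2 at 23.8 and Rgs2 at 12.8 CPM per kb. Bdnf had 10.4, Ptgs2 6.45, Npas4 3.30 and Inhba 1.85 CPM per kb. The order changed with condition. Arc stood above Vgf at ORM+1 h on NC ad lib (141 and 124), HFS ad lib (137 and 135) and HFS TRF (161 and 141). Plk2 stood above Arc at HC zt3 (77.0 and 41.5, 73.4 and 52.7, 72.5 and 41.2 in the same order of diets). The span over the 12 groups did not follow abundance. Npas4, among the least abundant, had a group mean 4.74-fold higher in its highest group than in its lowest, Arc 3.90-fold, and Homer1 and Inhba 2.46-fold each. Nptx2 spanned 1.97-fold, Ptgs2 1.65-fold, Plk2 1.61-fold, Bdnf 1.56-fold, Vgf 1.5-fold and Rgs2 1.49-fold. Mice of one group were also most unlike for Npas4, with a median coefficient of variation over the groups of 36.4%, and most alike for Plk2 at 7.99%.

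**Figure D1:**
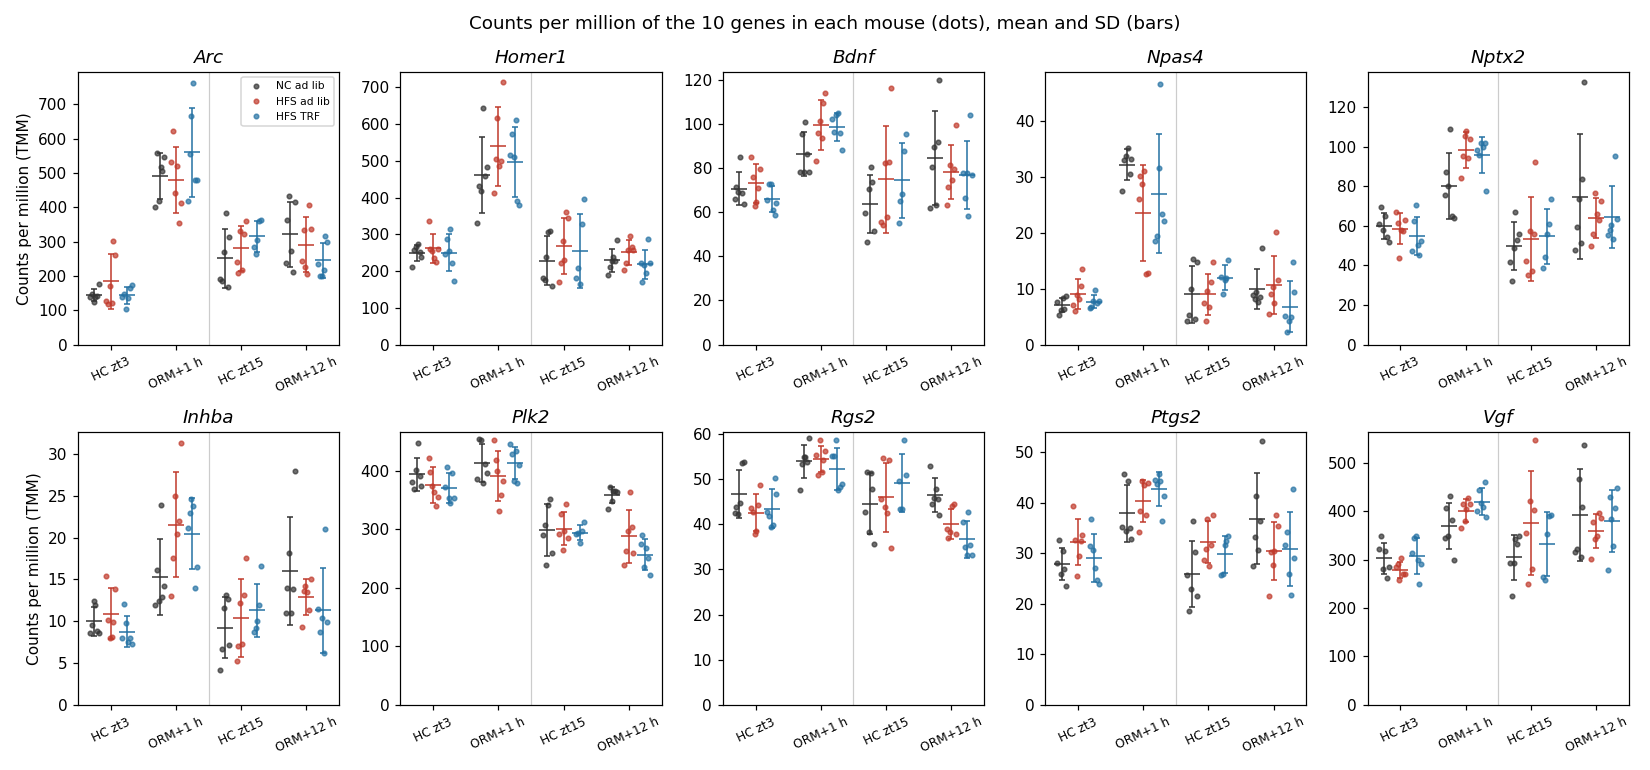
Level of each of the 10 genes in every mouse (dots, CPM, linear axis from 0) by condition and diet, with group means and SD as bars. Arc, Homer1 and Npas4 stand highest at ORM+1 h on all 3 diets, while Plk2 means are lower at zt15 and at ORM+12 h than at zt3 on all 3 diets. Groups at zt3 and at zt15 come from separate experiments.

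The comparison of ORM+1 h with HC zt3 asks which mRNAs on these ribosomes had changed 1 h after training. On each of the 3 diets all 10 genes had a positive log2 fold change, and Arc, Homer1 and Npas4 rose on all 3. NC ad lib had 4 of 10 genes called, all up, where 5.73% of all tested genes were called. HFS ad lib had 7 of 10, all up, against a background of 1.23%, and on HFS TRF 8 of 10, all up, against 2.87%. Without HFS ad lib HC zt3 replicate 3 the count on HFS ad lib was 3. On NC ad lib it was 7 in the model of only the compared groups (2370 of all tested genes, 1727 as reported). There it was 8 with the summed astrocyte markers as a covariate, chosen after seeing the data (531 of all tested genes). These sums did not overlap between the compared groups, so the covariate and training cannot be told apart there. Plk2 was the 1 gene called on no diet. The median log2 fold change of the 10 genes was 0.43 on NC ad lib, 0.64 on HFS ad lib and 0.70 on HFS TRF, while the median of all tested genes was 0, 0 and -0.0062. All trained mice exceeded all home-cage mice in 4 of the 10 genes on NC ad lib, 5 on HFS ad lib and 7 on HFS TRF, against 3.19%, 0.819% and 2.14% of all tested genes.

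Arc, an immediate-early protein that drives internalization of AMPA receptors at active synapses, had the smallest adjusted p of the 10 genes on each diet. Arc on NC ad lib ran from 125 to 176 CPM (median 141) at HC zt3 and from 401 to 558 CPM (median 511) at ORM+1 h, with means of 145 ± 17 and 491 ± 66.2 CPM (SD, n = 6 each). Arc on HFS ad lib ran from 119 to 303 CPM (median 149) at HC zt3 and from 353 to 621 CPM (median 479.9) at ORM+1 h, with means of 184 ± 79.6 and 479.6 ± 96.7 CPM (SD, n = 6 each). Arc on HFS TRF ran from 104 to 174 CPM (median 143) at HC zt3 and from 418 to 761 CPM (median 517) at ORM+1 h, with means of 144 ± 24.5 and 560.1 ± 130.1 CPM (SD, n = 6 each). On each diet all 6 trained mice lay above all 6 home-cage mice. The HFS ad lib home-cage group was the most uneven, since replicates 5 and 6 stood at 303 and 262 CPM and the other 4 mice at 119 to 169 CPM. Arc rose on NC ad lib with a log2 fold change of 1.76 (95% interval 1.36 to 2.16) and an adjusted p of 2.2e-09. It rose on HFS ad lib with a log2 fold change of 1.38 (95% interval 0.99 to 1.78) and an adjusted p of 2.5e-06. The rise on HFS TRF had a log2 fold change of 1.96 (95% interval 1.56 to 2.37) and an adjusted p of 1.0e-10. The same 2 HFS ad lib home-cage mice had the highest astrocyte marker sums of their group, 2201 and 1833 CPM against 512 to 646 CPM in the other 4.

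Homer1 encodes a postsynaptic scaffold protein that links group I metabotropic glutamate receptors to intracellular calcium stores, and a short activity-induced form of it uncouples them. The count table holds 1 value for the gene and does not separate the forms. Homer1 on NC ad lib ran from 212 to 272 CPM (median 255) at HC zt3 and from 331 to 644 CPM (median 445) at ORM+1 h, with means of 249.8 ± 21.9 and 461 ± 104 CPM (SD, n = 6 each). Homer1 on HFS ad lib ran from 225 to 337 CPM (median 257) at HC zt3 and from 413 to 714 CPM (median 503) at ORM+1 h, with means of 262 ± 39.3 and 539 ± 108 CPM (SD, n = 6 each). Homer1 on HFS TRF ran from 172 to 316 CPM (median 250.1) at HC zt3 and from 379 to 611 CPM (median 512) at ORM+1 h, with means of 249 ± 50.5 and 496 ± 94.5 CPM (SD, n = 6 each). Trained and home-cage mice did not overlap on any diet, although HFS ad lib HC zt3 replicate 1, at 337 CPM, stood well above the other mice of its group. Homer1 rose on NC ad lib with a log2 fold change of 0.88 (95% interval 0.54 to 1.23) and an adjusted p of 0.000257. The HFS ad lib change was a log2 fold change of 1.04 (95% interval 0.70 to 1.39) and an adjusted p of 6.5e-05. On HFS TRF it rose with a log2 fold change of 0.99 (95% interval 0.65 to 1.34) and an adjusted p of 9.3e-05.

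Npas4 is a calcium-dependent transcription factor that shapes inhibitory and excitatory inputs of the neuron in which it is induced. Npas4 on NC ad lib ran from 5.32 to 8.69 CPM (median 6.99) at HC zt3 and from 27.5 to 35.1 CPM (median 33.1) at ORM+1 h, with means of 7.07 ± 1.34 and 32.2 ± 2.73 CPM (SD, n = 6 each). Npas4 on HFS ad lib ran from 5.92 to 13.4 CPM (median 8.48) at HC zt3 and from 12.7 to 31.1 CPM (median 27.4) at ORM+1 h, with means of 8.98 ± 2.69 and 23.6 ± 8.57 CPM (SD, n = 6 each). Npas4 on HFS TRF ran from 6.58 to 9.78 CPM (median 7.62) at HC zt3 and from 18.6 to 46.5 CPM (median 22.7) at ORM+1 h, with means of 7.69 ± 1.15 and 26.9 ± 10.7 CPM (SD, n = 6 each). The 6 trained mice on NC ad lib were high and close together, and on HFS TRF they were all above the home-cage mice but spread widely. Trained mice on HFS ad lib were divided, since 4 stood at 26.0 to 31.1 CPM and replicates 5 and 6 at 12.7 and 12.8 CPM, inside the home-cage range. Npas4 rose on NC ad lib with a log2 fold change of 2.19 (95% interval 1.56 to 2.81) and an adjusted p of 1.2e-06. For HFS ad lib the change was a log2 fold change of 1.39 (95% interval 0.78 to 2.00) and an adjusted p of 0.00587. For HFS TRF it was a log2 fold change of 1.81 (95% interval 1.19 to 2.42) and an adjusted p of 6.5e-05. Leaving out any single mouse kept Arc, Homer1 and Npas4 called at ORM+1 h on every diet.

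Bdnf and Nptx2 encode secreted proteins that act on synapses. Bdnf is the neurotrophin that signals through the receptor Ntrk2, and its many promoters are not told apart by a count per gene. Bdnf on NC ad lib ran from 64.0 to 84.9 CPM (median 68.9) at HC zt3 and from 78.3 to 101 CPM (median 82.5) at ORM+1 h, with means of 70.6 ± 7.45 and 86.4 ± 9.97 CPM (SD, n = 6 each). Bdnf on HFS ad lib ran from 62.7 to 85.0 CPM (median 73.5) at HC zt3 and from 83.2 to 114 CPM (median 98.5) at ORM+1 h, with means of 73.1 ± 8.70 and 99.6 ± 11.2 CPM (SD, n = 6 each). Bdnf on HFS TRF ran from 58.7 to 73.0 CPM (median 64.9) at HC zt3 and from 88.3 to 105 CPM (median 99.4) at ORM+1 h, with means of 65.9 ± 5.90 and 98.7 ± 6.44 CPM (SD, n = 6 each). On HFS TRF every trained mouse was above every home-cage mouse, on HFS ad lib 5 of 6 were, and on NC ad lib 3 of 6. Bdnf rose on HFS TRF with a log2 fold change of 0.58 (95% interval 0.30 to 0.87) and an adjusted p of 0.00818. HFS ad lib gave a log2 fold change of 0.44 (95% interval 0.16 to 0.73, adjusted p = 0.105), which missed the threshold. NC ad lib gave a log2 fold change of 0.29 (95% interval 0.0095 to 0.57, adjusted p = 0.25), which missed it as well. DESeq2's Wald test put the HFS ad lib change past the threshold (adjusted p = 0.0385; 0.0117 to 0.104 over the 9 alternatives). With edgeR it passed in the model of only the compared groups (0.0256), the replicate block (0.0253), the replicate block within condition (0.0217) and with the astrocyte covariate (0.0117).

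Nptx2 (neuronal pentraxin 2) is secreted from excitatory terminals and clusters AMPA receptors. Nptx2 on NC ad lib ran from 51.7 to 69.8 CPM (median 59.6) at HC zt3 and from 63.9 to 109 CPM (median 77.8) at ORM+1 h, with means of 60.0 ± 6.78 and 80.2 ± 16.8 CPM (SD, n = 6 each). Nptx2 on HFS ad lib ran from 44.0 to 67.0 CPM (median 59.9) at HC zt3 and from 84.1 to 108 CPM (median 99.7) at ORM+1 h, with means of 58.5 ± 7.91 and 98.5 ± 9.03 CPM (SD, n = 6 each). Nptx2 on HFS TRF ran from 45.5 to 70.8 CPM (median 51.5) at HC zt3 and from 77.7 to 102 CPM (median 99.2) at ORM+1 h, with means of 54.9 ± 9.81 and 96.0 ± 9.24 CPM (SD, n = 6 each). The groups were apart on both HFS diets and overlapped on NC ad lib, where 4 of 6 trained mice were above all home-cage mice. Nptx2 rose on HFS ad lib with a log2 fold change of 0.75 (95% interval 0.39 to 1.11) and an adjusted p of 0.0147. It also rose on HFS TRF, with a log2 fold change of 0.81 (95% interval 0.45 to 1.16) and an adjusted p of 0.00348. NC ad lib gave a log2 fold change of 0.42 (95% interval 0.062 to 0.77, adjusted p = 0.178), which did not pass. Without HFS ad lib HC zt3 replicate 3, its lowest mouse there at 44.0 CPM, the HFS ad lib call was lost (log2 fold change 0.68, adjusted p = 0.0638).

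Inhba encodes the beta A subunit of activin, a secreted ligand of the TGF-beta family. Inhba on NC ad lib ran from 8.55 to 12.4 CPM (median 9.17) at HC zt3 and from 11.9 to 23.9 CPM (median 13.6) at ORM+1 h, with means of 9.99 ± 1.75 and 15.3 ± 4.51 CPM (SD, n = 6 each). Inhba on HFS ad lib ran from 7.95 to 15.4 CPM (median 10.0) at HC zt3 and from 13 to 31.3 CPM (median 21.2) at ORM+1 h, with means of 10.9 ± 3.07 and 21.5 ± 6.29 CPM (SD, n = 6 each). Inhba on HFS TRF ran from 7.22 to 12.0 CPM (median 7.99) at HC zt3 and from 14.0 to 24.6 CPM (median 22.0) at ORM+1 h, with means of 8.75 ± 1.83 and 20.5 ± 4.30 CPM (SD, n = 6 each). Trained mice were all above home-cage mice on HFS TRF, 5 of 6 were on HFS ad lib and 4 of 6 on NC ad lib, where replicate 4 alone reached 23.9 CPM. Inhba rose on HFS TRF with a log2 fold change of 1.23 (95% interval 0.73 to 1.73) and an adjusted p of 0.00118. It rose on HFS ad lib with a log2 fold change of 0.98 (95% interval 0.49 to 1.48) and an adjusted p of 0.0235. The NC ad lib value was a log2 fold change of 0.61 (95% interval 0.12 to 1.11) and an adjusted p of 0.149, not past the threshold. The HFS ad lib call was lost without any 1 of HC zt3 replicates 2, 3 and 4 or ORM+1 h replicates 3 and 6, with adjusted p values of 0.0624 to 0.106 and log2 fold changes of 0.85 to 0.96.

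Vgf encodes a granule protein of neurons that is processed into signalling peptides and is induced by neurotrophins. Vgf on NC ad lib ran from 261 to 348 CPM (median 301) at HC zt3 and from 299.6 to 431 CPM (median 366) at ORM+1 h, with means of 302 ± 32.2 and 369 ± 47.5 CPM (SD, n = 6 each). Vgf on HFS ad lib ran from 257 to 303 CPM (median 278) at HC zt3 and from 366 to 427 CPM (median 409.8) at ORM+1 h, with means of 279 ± 16.4 and 401 ± 23.5 CPM (SD, n = 6 each). Vgf on HFS TRF ran from 249 to 348 CPM (median 307) at HC zt3 and from 387 to 462 CPM (median 414) at ORM+1 h, with means of 308 ± 36.9 and 420.0 ± 27.8 CPM (SD, n = 6 each). Trained and home-cage mice were apart on both HFS diets, and 4 of 6 trained mice were above all home-cage mice on NC ad lib. Vgf rose on HFS ad lib with a log2 fold change of 0.52 (95% interval 0.27 to 0.77) and an adjusted p of 0.0157. It rose on HFS TRF with a log2 fold change of 0.45 (95% interval 0.20 to 0.70) and an adjusted p of 0.0321. NC ad lib gave a log2 fold change of 0.29 (95% interval 0.036 to 0.54, adjusted p = 0.194), which did not pass. The HFS ad lib call was lost without HC zt3 replicate 3 (log2 fold change 0.50, adjusted p = 0.0515). The HFS TRF call was lost without any 1 of HC zt3 replicates 1, 4, 5 and 6 or ORM+1 h replicates 2, 3, 4 and 5 (log2 fold changes 0.39 to 0.46, adjusted p 0.0513 to 0.0965).

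Ptgs2 (COX-2) is the inducible enzyme that starts prostaglandin synthesis and sits in dendrites of excitatory neurons. Ptgs2 on NC ad lib ran from 23.6 to 32.5 CPM (median 27.4) at HC zt3 and from 32.8 to 45.7 CPM (median 35.0) at ORM+1 h, with means of 27.9 ± 3.21 and 37.9 ± 5.62 CPM (SD, n = 6 each). Ptgs2 on HFS ad lib ran from 25.5 to 39.4 CPM (median 32.5) at HC zt3 and from 34.3 to 44.3 CPM (median 40.9) at ORM+1 h, with means of 32.2 ± 4.59 and 40.3 ± 4.18 CPM (SD, n = 6 each). Ptgs2 on HFS TRF ran from 24.0 to 36.7 CPM (median 28.9) at HC zt3 and from 36.3 to 45.6 CPM (median 44.0) at ORM+1 h, with means of 29.1 ± 4.82 and 42.6 ± 3.39 CPM (SD, n = 6 each). The groups did not overlap on NC ad lib, but the lowest trained mouse there stood just above the highest home-cage mouse, and on HFS TRF 5 of 6 and on HFS ad lib 3 of 6 trained mice were above all home-cage mice. Ptgs2 rose on NC ad lib with a log2 fold change of 0.44 (95% interval 0.17 to 0.71) and an adjusted p of 0.0349. It rose on HFS TRF with a log2 fold change of 0.55 (95% interval 0.28 to 0.82) and an adjusted p of 0.00945. HFS ad lib gave a log2 fold change of 0.33 (95% interval 0.057 to 0.60, adjusted p = 0.258), which did not pass. The NC ad lib call was lost without any 1 of HC zt3 replicates 1, 3, 5 and 6 or ORM+1 h replicates 1, 2, 4 and 6 (log2 fold changes 0.38 to 0.46, adjusted p 0.0512 to 0.111).

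Rgs2 is a GTPase-activating protein that shortens signalling by Gq-coupled receptors. Rgs2 on NC ad lib ran from 42.3 to 53.7 CPM (median 44.2) at HC zt3 and from 47.7 to 59.1 CPM (median 54.3) at ORM+1 h, with means of 46.8 ± 5.37 and 54.0 ± 3.70 CPM (SD, n = 6 each). Rgs2 on HFS ad lib ran from 37.8 to 48.7 CPM (median 43.2) at HC zt3 and from 51.0 to 58.6 CPM (median 54.8) at ORM+1 h, with means of 42.6 ± 4.03 and 54.5 ± 2.87 CPM (SD, n = 6 each). Rgs2 on HFS TRF ran from 39.3 to 50.2 CPM (median 42.4) at HC zt3 and from 47.6 to 58.6 CPM (median 52.0) at ORM+1 h, with means of 43.5 ± 4.24 and 52.3 ± 4.60 CPM (SD, n = 6 each). The groups were apart on HFS ad lib and overlapped on the other 2 diets, with 3 of 6 trained mice above all home-cage mice on each. Rgs2 rose on HFS ad lib with a log2 fold change of 0.36 (95% interval 0.18 to 0.53) and an adjusted p of 0.0206. HFS TRF gave a log2 fold change of 0.27 (95% interval 0.090 to 0.44, adjusted p = 0.0900), which did not pass, though DESeq2 called it (adjusted p = 0.0334; 0.00631 to 0.322 over the 9 alternatives), as edgeR did without HC zt3 replicate 5 (log2 fold change 0.31, adjusted p = 0.0446). With edgeR the HFS TRF change also passed in the model of only the compared groups (0.0296), the replicate block (0.0217) and the replicate block within condition (0.00631). NC ad lib gave a log2 fold change of 0.21 (95% interval 0.031 to 0.38, adjusted p = 0.178), which did not pass, and was called in the replicate block within condition (0.0310 to 0.635 over the 9 alternatives). The HFS ad lib call was lost without any 1 of HC zt3 replicates 3 and 4 or ORM+1 h replicates 3 and 6 (log2 fold changes 0.32 to 0.35, adjusted p 0.0531 to 0.0803), and with the summed astrocyte markers as a covariate (adjusted p = 0.0622; 0.000407 to 0.0622 over the 9 alternatives).

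Plk2 is a polo-like kinase that weakens active synapses by phosphorylating spine proteins such as Sipa1l1. Plk2 on NC ad lib ran from 369 to 447 CPM (median 386) at HC zt3 and from 379 to 454 CPM (median 404) at ORM+1 h, with means of 394 ± 28.6 and 413 ± 32.8 CPM (SD, n = 6 each). Plk2 on HFS ad lib ran from 339 to 422 CPM (median 369) at HC zt3 and from 332 to 453 CPM (median 391) at ORM+1 h, with means of 375 ± 30.1 and 391 ± 43.1 CPM (SD, n = 6 each). Plk2 on HFS TRF ran from 345 to 407 CPM (median 363) at HC zt3 and from 379 to 446 CPM (median 419) at ORM+1 h, with means of 371 ± 25.4 and 413 ± 28.1 CPM (SD, n = 6 each). The trained and home-cage ranges overlapped on every diet. Of the 6 trained mice 2 were above all home-cage mice on NC ad lib, 1 was above and 1 below them on HFS ad lib, and 4 were above on HFS TRF. The log2 fold change of Plk2 was 0.069 (adjusted p = 0.742) on NC ad lib, 0.057 (adjusted p = 0.879) on HFS ad lib and 0.16 (adjusted p = 0.357) on HFS TRF. The 95% intervals were -0.089 to 0.23, -0.10 to 0.21 and -0.0021 to 0.31.

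**Figure D2:**
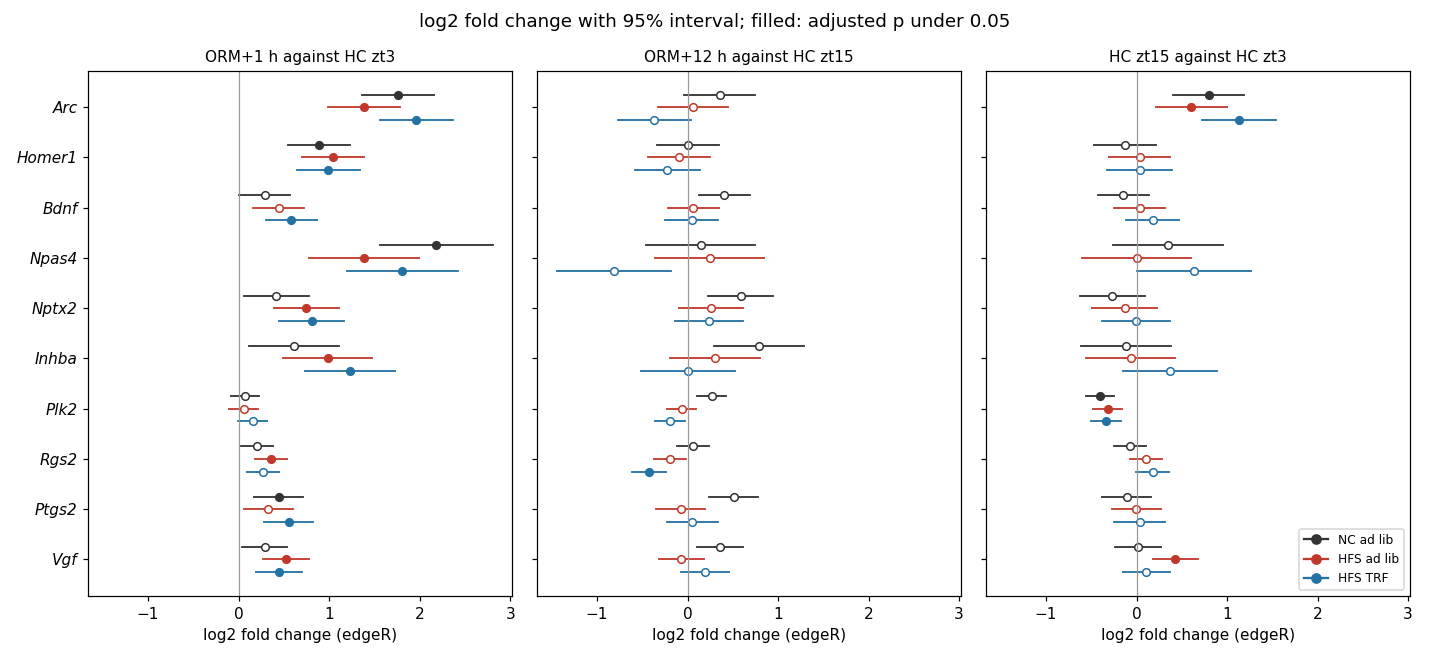
Log2 fold change of each of the 10 genes (points) with its 95% interval (lines) on each diet, for ORM+1 h against HC zt3, ORM+12 h against HC zt15 and HC zt15 against HC zt3, with called changes filled. At ORM+1 h all points lie above 0 and Arc, Homer1 and Npas4 are filled on all 3 diets.

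Whether the change at ORM+1 h differs between diets was tested as an interaction. For HFS ad lib minus NC ad lib edgeR called 0 of the 10 genes and 0% of all tested genes, with 0 of 10 at an unadjusted p under 0.05 and 0 called by DESeq2. The most negative value was that of Npas4, -0.80 (95% interval -1.64 to 0.052, adjusted p = 0.816), and Arc had -0.38 (adjusted p = 0.957). For HFS TRF minus HFS ad lib edgeR called 0 of 10 and 0% of all tested genes, and DESeq2 called 0 of 10. At an unadjusted p under 0.05 there was 1 of 10 (1685 of 30141 over all tested genes). That 1 gene was Arc, at 0.58 (95% interval 0.029 to 1.13, adjusted p = 0.867). Genes called on one diet and not on another at ORM+1 h, such as Bdnf, Nptx2, Inhba, Ptgs2, Rgs2 or Vgf, are not shown to differ between the diets of these 2 interactions, and HFS TRF minus NC ad lib was not tested.

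Astrocyte markers moved with the same comparison. All 6 rose on NC ad lib, the sum going from 817 ± 159.6 CPM to 2217 ± 480.0 CPM (SD, n = 6 each). On HFS TRF 5 of 6 rose, with sums of 871 ± 425 and 1865 ± 465 CPM. Among HFS ad lib mice edgeR called 0 of 6, 4 of them at an unadjusted p under 0.05 and 0 by DESeq2, with sums of 1046 ± 762 and 1588 ± 513 CPM. The most abundant of them, Aldoc, changed by 1.37 (adjusted p = 0.000623) on NC ad lib and 1.04 (adjusted p = 0.0234) on HFS TRF on the log2 scale, and none was near 0, Aqp4 having the lowest mean at 33.0 CPM. Neuronal markers moved the other way on NC ad lib, where 1 of 8, Rbfox3, fell (-0.26, adjusted p = 0.0162), 3 were lower at an unadjusted p under 0.05 and DESeq2 called 2 down. Their sum there was 9448 ± 387 CPM at HC zt3 and 8564 ± 418 CPM at ORM+1 h (SD, n = 6 each), and their part in the results was not tested. For the same 8 markers on HFS ad lib and on HFS TRF edgeR called 0 and 0, with 1 and 1 at an unadjusted p under 0.05 and 0 and 0 by DESeq2. With the summed astrocyte markers as a covariate, chosen after seeing the data, Arc, Homer1 and Npas4 were called on every diet. With that covariate Bdnf (0.55, adjusted p = 0.0479), Nptx2 (0.78, 0.0218), Inhba (1.07, 0.0243) and Vgf (0.50, 0.0465) also passed on NC ad lib, which made 8 of 10. The count over all 30141 tested genes went from 1727 to 531. On NC ad lib the astrocyte sums did not overlap (663 to 1093 CPM at HC zt3, 1549 to 2960 CPM at ORM+1 h). The covariate and training therefore cannot be told apart there, which limits what these added calls show. Over all 9 alternatives to the model the adjusted p on NC ad lib ran from 0.0400 to 0.292 for Bdnf, 0.0218 to 0.194 for Nptx2, 0.0236 to 0.158 for Inhba and 0.0237 to 0.237 for Vgf. Of the 7 choroid plexus markers edgeR called 0 on each diet, with 0, 0 and 0 at an unadjusted p under 0.05 on NC ad lib and the 2 HFS diets (ad lib, then TRF), and 0, 0 and 0 by DESeq2. Microglial markers were also uncalled, edgeR having 0 of 5 on each diet, 0, 0 and 2 at an unadjusted p under 0.05 and 0, 0 and 0 by DESeq2. Their sums did not overlap on NC ad lib (35.1 to 41.9 CPM at HC zt3, 27.5 to 34.9 CPM at ORM+1 h) or HFS TRF (40.1 to 44.9 CPM, then 25.6 to 37.1 CPM), and were 43.7 ± 5.57 and 40.7 ± 9.77 CPM on HFS ad lib. Both OPC markers were lower on HFS TRF (19.7 ± 2.02 and 15.4 ± 2.59 CPM summed), where edgeR called 0 of 2, 2 at an unadjusted p under 0.05 and 0 by DESeq2. CA1 markers were lower at an unadjusted p under 0.05 in 1, 0 and 2 of 3 on the 3 diets and CA3 markers in 1, 0 and 0 of 3, with 0 called by edgeR and 0 by DESeq2. The CA1 sums on HFS TRF were 636 ± 46.3 and 557 ± 59.3 CPM. The part of microglia, OPC, CA1 and CA3 was not tested.

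Some other activity-regulated effector genes were called up in the same comparison. Of 14 on the list, 4 rose on NC ad lib, 6 on HFS ad lib and 6 on HFS TRF, and 0 fell by edgeR's test (0 on each diet at an unadjusted p under 0.05, and 0, 0 and 0 by DESeq2). Sik1, a kinase that restrains CREB coactivators, changed by 1.54 (adjusted p = 4.7e-06), 1.30 (adjusted p = 0.000259) and 1.42 (adjusted p = 3.1e-05) on the log2 scale on NC ad lib and the 2 HFS diets (ad lib, then TRF). Fbxo33 changed by 0.54 (adjusted p = 9.3e-06), 0.48 (adjusted p = 0.000245) and 0.48 (adjusted p = 0.000127) in the same order. Amigo3, an adhesion protein, changed by 1.22 (adjusted p = 1.9e-05), 1.27 (adjusted p = 1.8e-05) and 0.91 (adjusted p = 0.00251). The kinase Pim1 was called on all 3 diets too, and Pcsk1, the convertase that processes neuropeptide precursors, and Plat, tissue plasminogen activator, on both HFS diets. Pim1, Pcsk1 and Plat, and Amigo3 and Sik1 where they ranked lower, were named after their values were seen.

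Receptors, partners and relatives of the 10 genes were also listed. Among 21 receptors, processing enzymes and relatives of the secreted genes, the Bdnf receptor Ntrk2 rose on NC ad lib (0.52, adjusted p = 0.000170) and HFS TRF (0.43, adjusted p = 0.00519). Scg3, a granule protein, rose on the same diets (0.89 and 0.64, adjusted p = 0.000316 and 0.0243), and Inha, the inhibin subunit that pairs with the Inhba product, fell on both (-0.47 and -0.49, adjusted p = 0.0282 and 0.0336). On HFS ad lib edgeR called 0 of the 21, with 5 at an unadjusted p under 0.05 and 0 by DESeq2. Among 19 synaptic partners and relatives, Plk3, a kinase related to Plk2, rose on every diet (0.90, 0.87 and 0.85, adjusted p = 9.1e-07, 4.2e-06 and 3.5e-06). Wasf1, an actin regulator, fell on NC ad lib (-0.24, adjusted p = 0.0269) and HFS ad lib (-0.30, adjusted p = 0.0133), Camk2b fell on NC ad lib (-0.24, adjusted p = 0.0244) and Rgs4, a relative of Rgs2, rose on HFS ad lib (0.45, adjusted p = 0.0258). Of 11 prostaglandin genes, Ptges and Ptges3, both prostaglandin E synthases, rose on NC ad lib (1.39 and 0.28, adjusted p = 0.0131 and 0.0376). By edgeR 0 of the 11 were called on HFS ad lib and 0 on HFS TRF, with 2 and 1 at an unadjusted p under 0.05 and 0 and 0 by DESeq2.

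Among 15 upstream transcription factors and coactivators, Crem, a CREB relative with an inducible repressor form, rose on NC ad lib (0.63, adjusted p = 0.000643), HFS ad lib (0.71, adjusted p = 0.000445) and HFS TRF (0.58, adjusted p = 0.00466). Creb1 itself rose on NC ad lib (0.30, adjusted p = 0.0349), where Crtc1 (-0.26, adjusted p = 0.0256) and Mef2c (-0.28, adjusted p = 0.0494) fell. The acetyltransferase Ep300 (0.39, adjusted p = 0.00238) and Srf (0.31, adjusted p = 0.0197), the latter named after its value was seen, rose on HFS TRF. The median log2 fold change of the effector list was 0.19, 0.43 and 0.36 on the 3 diets, beside -0.047, 0.028 and -0.019 for the trophic partners and -0.064, -0.052 and -0.0047 for the synaptic partners. The prostaglandin genes had 0.28, 0.072 and 0.14, above the effectors on NC ad lib, and the upstream factors -0.019, -0.0005 and 0.064.

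The comparison of ORM+12 h with HC zt15 asks what was changed 12 h after training. Of the 10 genes 1 was called on any diet, and the signs of the log2 fold changes were not the same on the 3 diets. All 10 log2 fold changes were positive on NC ad lib, but edgeR called 0 of 10 (0.209% of all tested genes), with 6 of 10 at an unadjusted p under 0.05 (5050 of 30141 over all tested genes) and 2 called by DESeq2 (303 of 15532 over all genes to which it gave an adjusted p). On HFS ad lib edgeR called 0 of 10 (0.179% of all tested genes) and DESeq2 0, and 5 values were positive and 5 negative. At an unadjusted p under 0.05 there was 1 of 10 (5129 of 30141 over all tested genes). On HFS TRF 1 of 10 was called, Rgs2, which fell (2.46% of all tested genes were called). Without single mice the count on NC ad lib was 1 (HC zt15 replicate 4) or 2 (ORM+12 h replicate 1), and on HFS TRF 0 (HC zt15 replicate 1 or 4) or 2 (ORM+12 h replicate 5). Counts over all tested genes in these fits are not given, so whether they moved alike is not shown. The median log2 fold change of the 10 was 0.36, -0.0039 and -0.097 on NC ad lib and the 2 HFS diets (ad lib, then TRF), and 0 over all tested genes on each.

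Rgs2 on HFS TRF was at 49.5, 43.3, 43.4, 58.7 and 50.9 CPM in the 5 HC zt15 mice and ran from 33.1 to 42.7 CPM (median 35.1) in the 6 ORM+12 h mice. All 6 trained mice lay below all 5 home-cage mice, which held for 0.756% of all tested genes. The change was a log2 fold change of -0.42 (95% interval -0.61 to -0.24) and an adjusted p of 0.0157. Without HC zt15 replicate 1 it was -0.42 (adjusted p = 0.0632), without replicate 4 -0.35 (0.0787), and with the astrocyte covariate -0.40 (0.0531; 0.00251 to 0.0531 over the 9 alternatives), so the call was lost in each of these 3 fits. The astrocyte sums of these groups did not overlap (1651 to 2445 CPM at HC zt15, 1101 to 1605 CPM at ORM+12 h). The covariate and training therefore cannot be told apart there. Rgs2 on HFS ad lib ran from 34.8 to 54.8 CPM (median 44.7) at HC zt15 and from 36.9 to 44.5 CPM (median 38.7) at ORM+12 h, with a log2 fold change of -0.20 (adjusted p = 0.251). The trained mice there lay inside the home-cage range.

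Npas4 on HFS TRF was at 12.0, 8.99, 11.6, 12.0 and 15.2 CPM in the HC zt15 mice and ran from 2.32 to 14.8 CPM (median 4.96) at ORM+12 h. Of the 6 trained mice 4 were below all home-cage mice, replicate 5 was at 14.8 CPM and replicate 6 at 9.47 CPM. Its log2 fold change of -0.82 (95% interval -1.45 to -0.18, adjusted p = 0.128) did not pass. Without ORM+12 h replicate 5 the value was -1.21 (adjusted p = 0.0436), and both replicate block fits called it too (0.00433 to 0.218 over the 9 alternatives). Npas4 on NC ad lib had 0.15 (adjusted p = 0.908) and on HFS ad lib 0.25 (adjusted p = 0.743) on the log2 scale. Arc on NC ad lib ran from 166 to 384 CPM (median 229.9) at HC zt15 and from 212 to 434 CPM (median 316) at ORM+12 h (0.35, adjusted p = 0.358). On HFS TRF Arc was at 283, 264, 306, 360.4 and 364 CPM at HC zt15 and ran from 199 to 317 CPM (median 227) at ORM+12 h (-0.37, adjusted p = 0.292). In that group 4 of the 6 trained mice were below all home-cage mice, and replicates 5 and 6, the highest for Npas4, were the highest for Arc. Homer1 overlapped on all 3 diets, with log2 values of 0.0043 (adjusted p = 1), -0.098 (adjusted p = 0.856) and -0.22 (adjusted p = 0.497).

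The genes nearest to the threshold at 12 h on NC ad lib were Ptgs2, Plk2, Nptx2 and Inhba. Ptgs2 ran from 18.5 to 36.4 CPM (median 24.2) at HC zt15 and from 27.4 to 52.3 CPM (median 34.8) at ORM+12 h. Plk2 ran from 239 to 352 CPM (median 299) and from 335 to 372 CPM (median 364). Nptx2 ran from 32.4 to 67.1 CPM (median 51.0) and from 47.9 to 133 CPM (median 66.8). In all 3 genes the ranges overlapped, and for Nptx2 and Ptgs2 replicate 6 of ORM+12 h was the highest mouse. Log2 fold changes were 0.51 (adjusted p = 0.0751) for Ptgs2, 0.27 (adjusted p = 0.119) for Plk2, 0.59 (adjusted p = 0.131) for Nptx2 and 0.79 (adjusted p = 0.140) for Inhba. DESeq2 called Ptgs2 (adjusted p = 0.0252; 0.0252 to 0.239 over the 9 alternatives) and Plk2 (0.0452; 0.0388 to 0.285 over the 9 alternatives). With edgeR, Ptgs2 passed without HC zt15 replicate 4 (0.63, adjusted p = 0.0198) and without ORM+12 h replicate 1 (0.58, 0.0266), and Nptx2 passed without ORM+12 h replicate 1 (0.69, 0.0465). Both replicate block fits called Ptgs2, Plk2 and Nptx2 (0.0433 to 0.292 over the 9 alternatives for Nptx2), and the block within condition also Vgf (0.0345 to 0.346 over the 9 alternatives). The secreted genes Bdnf and Vgf had 0.41 (adjusted p = 0.175) and 0.36 (adjusted p = 0.177), and Rgs2 had 0.060 (adjusted p = 0.826).

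The other values at 12 h on HFS ad lib lay between -0.098 (adjusted p = 0.856) for Homer1 and 0.30 (adjusted p = 0.560) for Inhba, apart from Rgs2 given above. On HFS TRF Plk2 was at 292, 294, 276, 297 and 312 CPM at HC zt15 and ran from 221 to 290.0 CPM (median 259) at ORM+12 h. There 5 of 6 trained mice were below all home-cage mice, with a log2 fold change of -0.20 (adjusted p = 0.156). Bdnf, Nptx2, Inhba, Ptgs2 and Vgf on HFS TRF had values of 0.048 (adjusted p = 0.947), 0.23 (adjusted p = 0.492), 0.0022 (adjusted p = 1), 0.052 (adjusted p = 0.927) and 0.19 (adjusted p = 0.400). At HC zt15 the 5 HFS TRF mice were at 182, 209, 164, 327 and 395 CPM for Homer1. For Bdnf they were at 55.2, 65.0, 68.3, 88.0 and 95.7 CPM, and for Nptx2 at 38.6, 44.4, 56.2, 60.8 and 73.8 CPM. Replicate 5 was the highest mouse of this group for 9 of the 10 genes. For Inhba the 5 mice were at 8.66, 9.16, 10.1, 12.0 and 16.5 CPM, for Ptgs2 at 25.7, 25.8, 31.6, 32.3 and 33.3 CPM and for Vgf at 264, 258, 353, 391 and 393 CPM. Other groups also had 1 mouse that was extreme for most of the genes. NC ad lib ORM+12 h replicate 6, HFS ad lib HC zt15 replicate 6 and HFS TRF ORM+12 h replicate 5 were each highest for 7 of 10, and HFS ad lib ORM+12 h replicate 1 was lowest for 8 of 10.

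The interactions at 12 h gave no calls among the 10 genes. For HFS ad lib minus NC ad lib edgeR called 0 of 10 and 0.106% of all tested genes. DESeq2 called 0 of 10 and 615 of 19622 over all genes to which it gave an adjusted p. At an unadjusted p under 0.05 there were 4 of 10 (5643 of 30141 over all tested genes). Those 4 were Ptgs2 (-0.59, adjusted p = 0.0918), Plk2 (-0.33, adjusted p = 0.0969), Vgf (-0.43, adjusted p = 0.165) and Rgs2 (-0.26, adjusted p = 0.251), all negative. Without HFS ad lib ORM+12 h replicate 4, the highest mouse of that group for Plk2 at 364 CPM, the Plk2 interaction was -0.41 with an adjusted p of 0.0286. The replicate block within condition called Ptgs2 (0.0471 to 0.230 over the 9 alternatives) and Plk2, the latter just under 0.05 and with a highest adjusted p of 0.319 over the 9 alternatives. For HFS TRF minus HFS ad lib edgeR called 0 of 10 and 0% of all tested genes, and DESeq2 called 0 of 10. At an unadjusted p under 0.05 there was 1 of 10, Npas4 (4247 of 30141 over all tested genes). Npas4 had -1.06 (95% interval -1.93 to -0.19, adjusted p = 0.231).

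Some listed genes around the 10 were called at 12 h. On NC ad lib the Srf coactivator Mrtfa rose (0.30, adjusted p = 0.0334), and on HFS ad lib Dnm3, a dynamin of the postsynapse, fell (-0.44, adjusted p = 0.0337). On HFS TRF the effector Sik1 fell (-0.88, adjusted p = 0.0334), the activin receptors Acvr1b (0.37, adjusted p = 0.0227) and Acvr2a (0.42, adjusted p = 0.0265) rose, the scaffolds Shank1 (0.61, adjusted p = 0.0200) and Shank3 (0.40, adjusted p = 0.0344) and the pentraxin receptor Nptxr (0.36, adjusted p = 0.0406, named after its value was seen) rose, and so did the transcription factor Elk1 (0.32, adjusted p = 0.0302). Of the 6 astrocyte markers edgeR called 0 on each diet, with 1, 3 and 1 at an unadjusted p under 0.05 and 0, 0 and 0 by DESeq2. Their sums at HC zt15 and ORM+12 h were 2008 ± 321 (n = 5) and 1406 ± 188 CPM (n = 6) on HFS TRF, 1833 ± 631 and 1703 ± 528 CPM on NC ad lib and 1755 ± 516 and 1186 ± 308 CPM on HFS ad lib (SD, n = 6 each). The granule cell marker C1ql2 (0.68, adjusted p = 0.0125), the neuronal marker Slc17a7 (0.41, adjusted p = 0.0376) and the myelin gene Mbp (0.42, adjusted p = 0.0272) rose beside the fall of Rgs2 on HFS TRF. The summed granule cell markers were higher at ORM+12 h on all 3 diets, with medians and ranges at HC zt15 and ORM+12 h of 195 CPM (147 to 270.0) and 251 CPM (199 to 288) on NC ad lib, 175 CPM (159.6 to 224) and 215 CPM (195 to 252) on HFS ad lib and 189.6 CPM (152 to 204) and 249 CPM (223 to 262) on HFS TRF. By edgeR 0, 0 and 1 of the 3 were called, with 2, 2 and 2 at an unadjusted p under 0.05 and 0, 0 and 1 by DESeq2. Of the 6 oligodendrocyte markers 1 was called on HFS TRF, 5 were higher at an unadjusted p under 0.05 and DESeq2 called 2, with sums of 933 ± 102 and 1218 ± 78.8 CPM. On the same diet edgeR called 0 of 3 CA1 markers, with 2 higher at an unadjusted p under 0.05, 1 called by DESeq2 and sums of 436 ± 53.3 and 526 ± 59.3 CPM, and 0 of 5 endothelial markers, with 1 at an unadjusted p under 0.05, 1 called by DESeq2 and sums of 3.54 ± 0.601 and 5.46 ± 3.39 CPM. The part of these cell types in the 12 h values was not tested.

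Choroid plexus markers, led by Ttr, did not pass the test at 12 h. edgeR called 0 of 7 on each diet and DESeq2 0, 0 and 0, but at an unadjusted p under 0.05 there were 7 lower on NC ad lib, 0 on HFS ad lib and 3 on HFS TRF. Their median log2 fold changes were -2.56, 1.64 and -1.85. Summed levels at HC zt15 and ORM+12 h were 7031 ± 6943 and 925 ± 1368 CPM on NC ad lib (SD, n = 6 each), 2017 ± 3439.5 and 6379 ± 6707 CPM on HFS ad lib (n = 6 each), and 7308 ± 7577 (n = 5) and 2074 ± 4161 CPM (n = 6) on HFS TRF. With these summed markers as a covariate, chosen after seeing the data, Rgs2 was called on HFS TRF and of the 10 genes 0 were called on NC ad lib, 0 on HFS ad lib and 1 on HFS TRF. Over all 30141 tested genes that fit called 4, 54 and 201, beside 63, 54 and 741 in the 12-group model without it. Microglial markers, led by Csf1r, were lower on HFS ad lib, where edgeR called 0 of 5, 5 had an unadjusted p under 0.05 and DESeq2 called 1. Their sums there were 75.8 ± 92.4 and 39.9 ± 8.10 CPM (SD, n = 6 each), the former with 1 mouse, replicate 2, at 264 CPM. Neuronal markers on HFS ad lib summed to 9492 ± 418 and 8818 ± 631 CPM, and 1 of 8, Gad2, fell (-0.40, adjusted p = 0.0401), with 4 lower at an unadjusted p under 0.05 and 2 called by DESeq2. On HFS TRF 1 of the 8 neuronal markers rose, and on NC ad lib edgeR called 0, with 2 at an unadjusted p under 0.05 and 0 by DESeq2. The part of microglia and neurons in the 12 h values was not tested.

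Comparing home-cage mice of zt15 and zt3 sets the dark phase against the light phase. As the groups come from separate experiments, it equally sets the second experiment against the first. Arc was higher and Plk2 lower at zt15 on all 3 diets, and edgeR's model of all 12 groups called 7 of the 10 genes on none. NC ad lib had 2 of 10 called, where 11.7% of all tested genes were. HFS ad lib had 3 of 10 called (10.4% of all tested genes) and on HFS TRF 2 of 10 (14.2%). Without HFS ad lib HC zt15 replicate 6 the count on HFS ad lib was 1.

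Arc on NC ad lib ran from 125 to 176 CPM (median 141) at zt3 and from 166 to 384 CPM (median 229.9) at zt15. Arc on HFS ad lib ran from 119 to 303 CPM (median 149) and from 208 to 359 CPM (median 281). On HFS TRF it ran from 104 to 174 CPM (median 143) at zt3, and the 5 zt15 mice were those listed above, at 264 to 364 CPM. All 5 zt15 mice were above all zt3 mice on HFS TRF, 5 of 6 on NC ad lib and 3 of 6 on HFS ad lib. Of all tested genes 3.1% on HFS TRF were higher in every zt15 mouse. Arc rose on NC ad lib with a log2 fold change of 0.80 (95% interval 0.41 to 1.19) and an adjusted p of 0.00262. On HFS ad lib it rose with a log2 fold change of 0.61 (95% interval 0.22 to 1.00) and an adjusted p of 0.0333. Arc rose on HFS TRF with a log2 fold change of 1.14 (95% interval 0.73 to 1.54) and an adjusted p of 2.6e-05. The HFS ad lib call was lost without any 1 of zt15 replicates 3, 5 and 6 or zt3 replicates 1, 2, 3 and 4 (log2 fold changes 0.51 to 0.58, adjusted p 0.0633 to 0.110). The model of only the compared groups lost it too (0.62, adjusted p = 0.101). With the astrocyte covariate the change was 0.47 (adjusted p = 0.141) on NC ad lib and 0.40 (0.191) on HFS ad lib, past the threshold on neither. On HFS TRF Arc was called with it too, but there the astrocyte sums of zt3 and zt15 did not overlap. Over all 9 alternatives the adjusted p ran from 0.000910 to 0.141 on NC ad lib and from 0.00434 to 0.191 on HFS ad lib.

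Plk2 on NC ad lib ran from 369 to 447 CPM (median 386) at zt3 and from 239 to 352 CPM (median 299) at zt15. Plk2 on HFS ad lib ran from 339 to 422 CPM (median 369) and from 265 to 343 CPM (median 295). On HFS TRF it ran from 345 to 407 CPM (median 363) at zt3 and was at 276 to 312 CPM in the 5 zt15 mice. Every zt15 mouse was below every zt3 mouse on NC ad lib and HFS TRF, and 5 of 6 were on HFS ad lib. Of all tested genes 4.3% on NC ad lib and 6.44% on HFS TRF were lower in every zt15 mouse. Plk2 fell on NC ad lib with a log2 fold change of -0.40 (95% interval -0.56 to -0.24) and an adjusted p of 0.000118. It fell on HFS ad lib with a log2 fold change of -0.32 (95% interval -0.48 to -0.16) and an adjusted p of 0.00324. The fall on HFS TRF was a log2 fold change of -0.34 (95% interval -0.50 to -0.17) and an adjusted p of 0.00244. With the astrocyte covariate the HFS TRF value was -0.26 (adjusted p = 0.0744; 0.000196 to 0.0744 over the 9 alternatives), and Plk2 was called with it on the other 2 diets. On HFS TRF the astrocyte sums did not overlap (473 to 1464 CPM at zt3, 1651 to 2445 CPM at zt15). The covariate and the difference between zt15 and zt3 therefore cannot be told apart there.

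Vgf on HFS ad lib ran from 257 to 303 CPM (median 278) at zt3 and from 249.6 to 547 CPM (median 379) at zt15. The zt15 mice were widely spread, with 4 above and 1 below all zt3 mice. The rise was a log2 fold change of 0.43 (95% interval 0.18 to 0.68) and an adjusted p of 0.0170, and without zt15 replicate 6, at 547 CPM, it was 0.29 (adjusted p = 0.129). The call was also lost in the model of only the compared groups (0.44, adjusted p = 0.0617; 0.000692 to 0.0617 over the 9 alternatives). Vgf had 0.014 (adjusted p = 1) on NC ad lib and 0.11 (adjusted p = 0.660) on HFS TRF, and the difference between diets in this comparison was not tested. Npas4 on HFS TRF was higher at zt15 in 4 of 5 mice than in all zt3 mice, with 0.64 (adjusted p = 0.175). It was called there in 3 of the 9 alternatives, the model of only the compared groups (0.64, adjusted p = 0.00443), the replicate block (0.77, 0.0336) and the replicate block within condition (0.80, 0.0156), with a range of 0.00443 to 0.466 over all 9. The values of Npas4 on NC ad lib and HFS ad lib were 0.35 (adjusted p = 0.510) and 0.00022 (adjusted p = 1). Homer1, the other early gene called on every diet after training, had -0.13 (adjusted p = 0.711), 0.033 (adjusted p = 0.978) and 0.034 (adjusted p = 0.967). The uncalled values of Bdnf, Nptx2, Inhba, Rgs2 and Ptgs2 lay between -0.27 (Nptx2 on NC ad lib) and 0.37 (Inhba on HFS TRF).

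Markers of cell types differed between zt15 and zt3 as well. Astrocyte markers rose, 6 of 6 on NC ad lib, 1 of 6 (Gfap) on HFS ad lib and 5 of 6 on HFS TRF, with zt15 sums of 1833 ± 631 (n = 6), 1755 ± 516 (n = 6) and 2008 ± 321 CPM (n = 5). The CA1 markers Fibcd1 and Mpped1 fell on every diet, by log2 values of -0.51 (adjusted p = 0.00592) and -0.31 (adjusted p = 0.00795) on NC ad lib, -0.48 (adjusted p = 0.0108) and -0.26 (adjusted p = 0.0383) on HFS ad lib and -0.73 (adjusted p = 0.000110) and -0.53 (adjusted p = 1.0e-05) on HFS TRF. The 3 granule cell markers rose on NC ad lib, the most abundant, Prox1, by 0.44 (adjusted p = 0.00703), 1 of them rose on HFS ad lib, and on HFS TRF edgeR called 0 of the 3, with 3 higher at an unadjusted p under 0.05 and 2 called by DESeq2. Their sums at zt3 and zt15 were 144 ± 10.7 and 198 ± 40.4 CPM on NC ad lib, 145 ± 23.9 and 183 ± 25.1 CPM on HFS ad lib and 143 ± 7.21 and 179.7 ± 22.1 CPM on HFS TRF. Of the 8 neuronal markers 1 rose and 1 fell on NC ad lib, 2 rose on HFS ad lib and 1 fell on HFS TRF. Microglial markers were called up on HFS ad lib, 2 of 5, but the sums of 43.7 ± 5.57 CPM at zt3 and 75.8 ± 92.4 CPM at zt15 had medians of 43.9 and 39.4 CPM, and zt15 replicate 2 was alone at 264 CPM. Endothelial markers rose in 1 of 5 on HFS ad lib (2.53 ± 1.01 and 4.70 ± 3.43 CPM summed) and 1 of 5 on HFS TRF (1.98 ± 0.607 and 3.54 ± 0.601 CPM), and 1 of 6 oligodendrocyte markers on HFS TRF (849.5 ± 131 and 933 ± 102 CPM). On HFS TRF edgeR called 0 of the 2 OPC markers, with 1 lower at an unadjusted p under 0.05 and 1 called down by DESeq2. Their sums at zt3 and zt15 were 19.7 ± 2.02 and 15.9 ± 4.75 CPM. The part of these cell types in the Arc and Plk2 differences was not tested beyond the astrocyte covariate. Over the lists, in the order NC ad lib, HFS ad lib, HFS TRF, edgeR called 1 up and 1 down, 1 up and 1 down, 2 up and 1 down of the 14 effectors, 2 up and 0 down, 1 up and 0 down, 3 up and 0 down of the 21 trophic partners, 0 up and 0 down, 2 up and 1 down, 1 up and 2 down of the 19 synaptic partners, 1 up and 0 down, 2 up and 0 down, 2 up and 0 down of the 11 prostaglandin genes and 1 up and 0 down, 3 up and 0 down, 2 up and 1 down of the 15 upstream factors. For the synaptic partners on NC ad lib, 4 had an unadjusted p under 0.05 and DESeq2 called 0. Of the listed genes, Sik1 rose at zt15 on every diet (0.86, 0.83 and 1.34, adjusted p = 0.00661, 0.0105 and 2.7e-05), and Penk, the enkephalin precursor, fell on NC ad lib (-0.60, adjusted p = 0.0174) and HFS ad lib (-0.82, adjusted p = 0.000708). Plk3 rose on HFS ad lib (0.60, adjusted p = 0.000389) and HFS TRF (0.44, adjusted p = 0.0144), against the fall of Plk2. Ntrk2 rose on NC ad lib (0.40, adjusted p = 0.00249) and HFS TRF (0.37, adjusted p = 0.00797), and the coactivator Crebbp rose on all 3 diets (0.31, 0.22 and 0.23, adjusted p = 0.00128, 0.0361 and 0.0286). Among the prostaglandin genes Ptges rose on NC ad lib (1.25, adjusted p = 0.0188), Ptgs1, the constitutive relative of Ptgs2, on HFS ad lib (0.48, adjusted p = 0.0257), and Ptges3 on both HFS diets (0.26 and 0.30, adjusted p = 0.0427 and 0.0162).

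The comparison of HFS ad lib with NC ad lib asks what the diet changed within a condition. Plk2 at ORM+12 h was the 1 gene of the 10 called in any of the 4 conditions. At HC zt3 edgeR called 0 of 10 genes (0% of all tested genes), 0 at an unadjusted p under 0.05 and 0 by DESeq2. At ORM+1 h it called 0 of 10 (0%) and DESeq2 0, with 1, Inhba, at an unadjusted p under 0.05 (2881 of 30141 over all tested genes). At HC zt15 it called 0 of 10 (0.063%) and DESeq2 0. At an unadjusted p under 0.05 there were 2, Ptgs2 and Vgf (3753 of 30141 over all tested genes). At ORM+12 h edgeR called 1 of 10 (2.27%). Plk2 at ORM+12 h ran from 335 to 372 CPM (median 364) on NC ad lib and from 239.7 to 364 CPM (median 279.8) on HFS ad lib. Of the 6 HFS ad lib mice 5 were below all NC ad lib mice, and replicate 4 was inside their range. The fall was a log2 fold change of -0.32 (95% interval -0.47 to -0.16) and an adjusted p of 0.0234. It was lost without any 1 of HFS ad lib replicates 1, 2 and 6 or NC ad lib replicate 4 (log2 fold changes -0.31 to -0.27, adjusted p 0.0620 to 0.0779), and in the model of only the compared groups (-0.30, adjusted p = 0.173; 0.00278 to 0.173 over the 9 alternatives). That last model called 0 of all 30141 tested genes there, and the 12-group model 684. At ORM+12 h the summed markers on NC ad lib and HFS ad lib were 925 ± 1368 and 6379 ± 6707 CPM for choroid plexus, 1703 ± 528 and 1186 ± 308 CPM for astrocytes and 9604 ± 283 and 8818 ± 631 CPM for neurons (SD, n = 6 each). Plk2 was called with the choroid plexus covariate and with the astrocyte covariate, and the part of neurons was not tested. Rgs2 in this comparison had -0.21 (adjusted p = 0.160) and was called in 1 alternative, the replicate block within condition (0.0462 to 0.273 over the 9 alternatives).

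Arc at HC zt3 was 145 ± 17 CPM on NC ad lib and 184 ± 79.6 CPM on HFS ad lib (SD, n = 6 each), with a log2 fold change of 0.35 (adjusted p = 0.654). Npas4 at ORM+1 h had -0.45 (adjusted p = 0.644), with 3 of 6 HFS ad lib mice below all NC ad lib mice. Inhba at ORM+1 h had 0.50 (adjusted p = 0.519), and at HC zt15 Ptgs2 had 0.32 (adjusted p = 0.367) and Vgf 0.30 (adjusted p = 0.366). None of these passed the test, and the ranges of the groups overlapped. For HFS TRF against HFS ad lib edgeR called 0 of the 10 genes in every condition, where it called 0% of all tested genes at HC zt3, 0% at ORM+1 h, 0% at HC zt15 and 0.00664% at ORM+12 h. At an unadjusted p under 0.05 there were 0, 0, 0 and 2 of the 10, and DESeq2 called 0, 0, 0 and 0. Such an unadjusted p was reached by 1774, 1971, 4694 and 3704 of all 30141 tested genes in the same order of conditions. The 2 genes at ORM+12 h were Npas4 (-0.65, adjusted p = 0.385) and Plk2 (-0.16, adjusted p = 0.395), both lower on HFS TRF. Arc at HC zt3 had -0.36 (adjusted p = 0.879) and at ORM+1 h 0.22 (adjusted p = 0.978).

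Ordered by mean level over the 12 groups (CPM, SD), Arc ran HFS TRF ORM+1 h 560.1 ± 130.1, NC ad lib ORM+1 h 491 ± 66.2, HFS ad lib ORM+1 h 479.6 ± 96.7, NC ad lib ORM+12 h 322 ± 94.8, HFS TRF HC zt15 315 ± 45.0, HFS ad lib ORM+12 h 291 ± 79.4, HFS ad lib HC zt15 279.8 ± 65.0, NC ad lib HC zt15 252 ± 86.0, HFS TRF ORM+12 h 245 ± 51.4, HFS ad lib HC zt3 184 ± 79.6, NC ad lib HC zt3 145 ± 17, HFS TRF HC zt3 144 ± 24.5. The 3 trained groups of ORM+1 h stood on top, and the step down to NC ad lib ORM+12 h was the 1 of 11 between neighbours that exceeded the larger SD of the pair. Homer1 had the 3 ORM+1 h groups on top too, HFS ad lib at 539 ± 108, HFS TRF at 496 ± 94.5 and NC ad lib at 461 ± 104, and then 9 groups from 268 ± 75.1 (HFS ad lib HC zt15) to 219 ± 39.5 (HFS TRF ORM+12 h) whose neighbours did not differ beyond their spread. For Npas4 the order was NC ad lib ORM+1 h 32.2 ± 2.73, HFS TRF ORM+1 h 26.9 ± 10.7, HFS ad lib ORM+1 h 23.6 ± 8.57, HFS TRF HC zt15 12.0 ± 2.2, HFS ad lib ORM+12 h 10.7 ± 5.14, NC ad lib ORM+12 h 9.96 ± 3.62, NC ad lib HC zt15 9.03 ± 5.10, HFS ad lib HC zt15 8.99 ± 3.70, HFS ad lib HC zt3 8.98 ± 2.69, HFS TRF HC zt3 7.69 ± 1.15, NC ad lib HC zt3 7.07 ± 1.34, HFS TRF ORM+12 h 6.79 ± 4.59, and the 1 step beyond the spread was from HFS ad lib ORM+1 h to HFS TRF HC zt15.

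Plk2 had a different order, HFS TRF ORM+1 h 413 ± 28.1, NC ad lib ORM+1 h 413 ± 32.8, NC ad lib HC zt3 394 ± 28.6, HFS ad lib ORM+1 h 391 ± 43.1, HFS ad lib HC zt3 375 ± 30.1, HFS TRF HC zt3 371 ± 25.4, NC ad lib ORM+12 h 358 ± 14.0, HFS ad lib HC zt15 301 ± 28.4, NC ad lib HC zt15 298 ± 44.5, HFS TRF HC zt15 294 ± 12.9, HFS ad lib ORM+12 h 288 ± 44.6, HFS TRF ORM+12 h 257 ± 25.9. All 6 zt3 and ORM+1 h groups stood above all 6 zt15 and ORM+12 h groups, which is also the split between the separate experiments. The 1 step beyond the spread was from NC ad lib ORM+12 h to HFS ad lib HC zt15. Bdnf was highest in HFS ad lib ORM+1 h at 99.6 ± 11.2 and lowest in NC ad lib HC zt15 at 63.8 ± 13.3, and the 1 step beyond the spread was from HFS TRF ORM+1 h to NC ad lib ORM+1 h. Nptx2, Inhba, Ptgs2, Rgs2 and Vgf had no step between neighbours beyond the spread. Nptx2 went from 98.5 ± 9.03 (HFS ad lib ORM+1 h) to 49.9 ± 12.0 (NC ad lib HC zt15) and Inhba from 21.5 ± 6.29 (HFS ad lib ORM+1 h) to 8.75 ± 1.83 (HFS TRF HC zt3). Ptgs2 went from 42.6 ± 3.39 (HFS TRF ORM+1 h) to 25.9 ± 6.53 (NC ad lib HC zt15) and Vgf from 420.0 ± 27.8 (HFS TRF ORM+1 h) to 279 ± 16.4 (HFS ad lib HC zt3). Rgs2 went from 54.5 ± 2.87 (HFS ad lib ORM+1 h) to 36.6 ± 4.00 (HFS TRF ORM+12 h). For 7 of the 10 genes, all but Inhba, Plk2 and Vgf, the 3 ORM+1 h groups were the 3 highest.

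Over all 71 mice, the gene whose log2 CPM was most like that of Arc by Pearson's r was Trib1 (r = 0.933). For Homer1 it was the immediate-early factor Egr3 (0.939) and for Npas4 the orphan receptor Nr4a1 (0.907). Pcdh8, a protocadherin, was the nearest for Bdnf (0.854), Nptx2 (0.889), Inhba (0.839) and Ptgs2 (0.831). Vgf was nearest to the granule protein Scg2 (0.850), Rgs2 to the chaperone Dnaja1 (0.797) and Plk2 to Eif4a-ps4 (0.890), annotated as a pseudogene. The 71 points share the libraries and the 12 groups, so these values are descriptions.

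The count table's annotation build GRCm39 places the genes on chromosomes 1, 2, 5, 13, 15 and 19. Arc (ENSMUSG00000022602) lies at chr15:74540932-74544419, Npas4 (ENSMUSG00000045903) at chr19:5034382-5040344 and Bdnf (ENSMUSG00000048482) at chr2:109505045-109557475. On chromosome 13 lie Homer1 (ENSMUSG00000007617, chr13:93436143-93541637), Inhba (ENSMUSG00000041324, chr13:16186373-16206206) and Plk2 (ENSMUSG00000021701, chr13:110531015-110537379). Chromosome 5 holds Nptx2 (ENSMUSG00000059991, chr5:144482692-144500381) and Vgf (ENSMUSG00000037428, chr5:137055246-137062205), and chromosome 1 holds Rgs2 (ENSMUSG00000026360, chr1:143875076-143879899) and Ptgs2 (ENSMUSG00000032487, chr1:149975194-149983978). Exons of 5 of the genes share bases with an annotated RNA of the opposite strand. These are 13.5% of the exon length of Bdnf (Gm45346), 11.3% of Rgs2 (Gm41964), 9.29% of Ptgs2 (Ptgs2os), 2.83% of Inhba (4933412O06Rik) and 0.162% of Homer1 (Gm61466). The strand setting used for counting is not given in the sources used here.

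Since 9 of the 10 genes rose at ORM+1 h on at least 1 diet, their promoters were searched for motifs of activity-dependent factors in RefSeq's table of build GRCm38.p6. Of the 10 genes 7 are in it, with 14 promoters between them, 7 of Bdnf, 2 of Homer1 and 1 each of Npas4, Inhba, Plk2, Rgs2 and Ptgs2, while Arc, Nptx2 and Vgf are not. The 250 bases before each start were searched on both strands. The full cAMP response element TGACGTCA was in 1 of the 14 promoters, that of Plk2, where it begins 62 bases before the start, and in 1.55% of all 32851 promoters of the same length. Its core TGACG, contained in the full element, was in 5 of the 14, from 5 genes, and in 17.8% of all promoters. GCGTG, a core bound by some bHLH-PAS factors, was in 8 of the 14, from 7 genes, and in 28.2% of all. CACGTG (E-box) was in 0 of the 14 and 6.02% of all, and TATAAA in 1, that of Inhba, and 12.4% of all. A match is a description of letters, not of a bound site. The 5 promoters with TGACG are shown because they hold the element that Creb1 can bind in genes that rose after training and in Plk2, which was not called on any diet. They lie at chr13:93303507-93303756 on the forward strand (Homer1), chr2:109692186-109692435 on the forward strand (Bdnf), chr19:4989972-4990221 on the reverse strand (Npas4), chr13:110394794-110395043 on the forward strand (Plk2) and chr1:144004150-144004399 on the reverse strand (Rgs2), and are written 5′ to 3′ along the gene. Capitals mark the matches of the searched motifs on either strand, so that CGTCA and CACGC in capitals are TGACG and GCGTG read on the other strand.
Homer1: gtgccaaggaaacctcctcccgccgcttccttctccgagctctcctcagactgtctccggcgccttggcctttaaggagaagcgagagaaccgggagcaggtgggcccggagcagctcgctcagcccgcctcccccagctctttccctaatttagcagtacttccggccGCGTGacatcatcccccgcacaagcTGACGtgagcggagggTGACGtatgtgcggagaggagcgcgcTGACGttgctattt
Bdnf: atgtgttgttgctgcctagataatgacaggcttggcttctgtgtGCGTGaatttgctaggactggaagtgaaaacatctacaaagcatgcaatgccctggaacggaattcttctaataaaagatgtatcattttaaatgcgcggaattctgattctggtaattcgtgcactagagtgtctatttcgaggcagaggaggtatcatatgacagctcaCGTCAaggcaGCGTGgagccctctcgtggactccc
Npas4: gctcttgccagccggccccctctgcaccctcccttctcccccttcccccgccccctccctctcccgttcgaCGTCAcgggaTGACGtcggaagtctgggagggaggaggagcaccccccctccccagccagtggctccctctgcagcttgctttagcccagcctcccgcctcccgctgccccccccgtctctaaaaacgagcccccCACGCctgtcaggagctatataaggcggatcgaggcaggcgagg
Plk2: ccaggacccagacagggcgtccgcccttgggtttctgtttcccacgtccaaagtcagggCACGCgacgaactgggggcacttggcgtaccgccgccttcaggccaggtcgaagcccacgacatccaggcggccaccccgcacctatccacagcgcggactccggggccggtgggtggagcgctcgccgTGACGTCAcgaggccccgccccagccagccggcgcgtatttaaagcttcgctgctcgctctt
Rgs2: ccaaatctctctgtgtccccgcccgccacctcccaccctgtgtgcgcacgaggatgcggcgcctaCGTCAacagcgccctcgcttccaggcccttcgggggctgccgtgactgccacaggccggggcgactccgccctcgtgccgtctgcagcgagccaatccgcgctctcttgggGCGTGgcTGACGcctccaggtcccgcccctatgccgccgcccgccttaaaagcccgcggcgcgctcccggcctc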

How the data were processed

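The deposited table holds raw counts per gene for 57010 genes and 71 mice, made by the authors from hippocampal pS6-TRAP RNA. Per the submitters' processing notes, reads were trimmed with Trim Galore 0.6.7 and cutadapt 3.4, aligned with HISAT2 2.2.0 to GRCm39, and counted with featureCounts of Subread 2.0.3. The labels also list mm9 without giving its role. Depth ran from 34698914 to 62758570 counts per library, and TMM factors from 0.938 to 1.04. Mice were grouped into 12 groups by diet and condition. A gene needed 10 counts or more summed over all mice, and the 30141 that had them were fitted with edgeR 4.0.16 in R 4.3.3, in 1 model of 12 groups, with quasi-likelihood tests for 21 comparisons (9 of condition, 8 of diet and 4 interactions) and Benjamini-Hochberg adjustment over all tested genes in each. 95% intervals come from the fitted log2 fold change and its F statistic, and group levels are CPM with SD. The fit was tested on simulated data, and the columns were checked for identical libraries, of which there were 0. The 10 genes and the 5 lists around them were chosen with earlier results of these data known. Genes named beside the 10 are, per list and comparison, up to 2 up and 2 down with the smallest adjusted p, the gene most alike to each of the 10, and the most abundant gene of each marker list. Alternatives were DESeq2's size factors, 2 other count filters (at least 1 count, and filterByExpr), DESeq2 1.42.0's Wald test, a model of only the compared groups, a replicate block, a replicate block within condition, leaving out each mouse in turn, and, chosen after seeing the data, the summed choroid plexus markers or the summed astrocyte markers as a covariate. In fits without a mouse, library scaling was redone, but the dispersion trend estimated from all 71 mice was kept. No library was left out of the reported values. Proteins and transcript forms were not examined.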

Additional observations from a re-analysis of the deposited data

Results flagged for a closer look

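Of 120 groups of values (10 genes in 12 groups), 7 held a mouse far from the others of its group by the ratio of its gap to the whole range. Chance flags about 1 in 20 groups. Homer1 in HFS ad lib HC zt3 was 337 CPM in replicate 1, with the next mouse at 259.8 CPM. Bdnf in NC ad lib HC zt3 was 84.9 CPM in replicate 4 (next 71.3). Npas4 in NC ad lib ORM+12 h was 17.2 CPM in replicate 6 (next 9.42). Nptx2 in HFS TRF ORM+1 h was lowest in replicate 6 at 77.7 CPM (next 95.8), and in HFS TRF ORM+12 h it was highest in replicate 5 at 95.6 CPM (next 63.3). Inhba was 23.9 CPM in NC ad lib ORM+1 h replicate 4 (next 16.2) and 21.1 CPM in HFS TRF ORM+12 h replicate 5 (next 11.5), the mouse that also stood out for Nptx2.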

How the results depend on the processing

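None of the 28 called changes of the 10 genes reversed under any of the 9 alternatives or with any single mouse left out. Over the alternatives 244 of their values kept direction and side of the threshold and 8 fell short of it (5 with the astrocyte covariate, 3 in the model of only the compared groups). With each mouse left out, 292 did and 41 fell short. Counts of called genes moved by over 1.5 times as follows, and the cause was not tested. Counts over all 30141 tested genes, then and as reported, are in square brackets. They are not given for fits without single mice, here or above, so whether all tested genes moved alike there is not shown. With the astrocyte covariate, ORM+1 h against HC zt3 on NC ad lib gave 8 (4 reported) [531, 1727], ORM+12 h against HC zt15 on HFS TRF 0 (1 reported) [29, 741], and HC zt15 against HC zt3 gave 1 on NC ad lib [2287, 3534] and 1 on HFS TRF [2507, 4282] (2 reported each). For ORM+1 h on NC ad lib and for both HFS TRF results the astrocyte sums of the compared groups did not overlap. The covariate and the condition cannot be told apart in those fits. In the model of only the compared groups, ORM+1 h on NC ad lib gave 7 [2370, 1727], HC zt15 against HC zt3 on HFS ad lib 1 (3 reported) [1778, 3139], and HFS ad lib against NC ad lib at ORM+12 h 0 (1 reported) [0, 684]. DESeq2 gave 2 for ORM+12 h on NC ad lib (0 reported) [303 of 15532, 63].

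With the replicate block, ORM+12 h gave 3 on NC ad lib [165, 63] and 2 on HFS TRF [833, 741]. With the replicate block within condition these were 4 [203] and 2 [764], HFS ad lib against NC ad lib at ORM+12 h gave 2 [1452, 684], and the interaction at ORM+12 h of HFS ad lib minus NC ad lib gave 2 (0 reported) [515, 32]. Blocks assume that equal replicate numbers belong together, and in no comparison did every pair of equal numbers correlate above 0.1. Leaving out single mice moved the count to 1 to 3 for HC zt15 against HC zt3 on HFS ad lib (1 without HC zt15 replicate 6), 3 to 7 for ORM+1 h on HFS ad lib (3 without HC zt3 replicate 3), 0 to 2 for ORM+12 h on HFS TRF (0 without HC zt15 replicate 1 or 4, 2 without ORM+12 h replicate 5), and 0 to 2 for ORM+12 h on NC ad lib (1 without HC zt15 replicate 4, 2 without ORM+12 h replicate 1). It moved to 0 to 1 for HFS ad lib against NC ad lib at ORM+12 h (0 without HFS ad lib replicate 1, 2 or 6 or NC ad lib replicate 4) and 0 to 1 for that interaction (1 without HFS ad lib ORM+12 h replicate 4). The lowest count of any of the 10 genes in a library was 124, for Npas4.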
